A study of Homo sapiens with 2 samples.

Results

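The 8 genes described here, LIN28A, LIN28B, HMGA1, HMGA2, IGF2BP1, IGF2BP2, IGF2BP3 and ARID3A, code for proteins that are known for high activity in embryonic and fetal cells. They were found by gene symbol, each as 1 of the 36601 genes in the count tables of both organoids. The organoids were blood-generating heart-forming organoids (BG-HFOs), which grow from Matrigel-embedded aggregates of the hES3 NKX2.5-eGFP embryonic stem cell line, a reporter line with green fluorescence in cells that use the cardiac gene NKX2.5, through stepwise switching of WNT signalling and added haemato-endothelial growth factors. Organoids 32.7 and 33.10 were treated alike, were dissociated separately on day 14 and gave 1 droplet library each, so n = 2 throughout. No untreated organoid or other condition was analysed here. The comparison is between the cell lineages that form side by side in an organoid.

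LIN28A and LIN28B are RNA-binding proteins that hold back the maturation of the let-7 microRNAs. let-7 in turn lowers messenger RNAs whose 3ʹ untranslated region (3ʹ UTR) pairs with its seed, and LIN28B itself, HMGA2, the IGF2BP genes and ARID3A belong to its textbook targets. HMGA1 and HMGA2 are small chromatin proteins that bend AT-rich DNA, the 3 IGF2BP proteins bind and stabilize messenger RNAs, and ARID3A is a DNA-binding factor of early erythroid and B lymphoid cells. In blood development the LIN28B, let-7 and HMGA2 axis is known as a mark of fetal as opposed to adult stem cells.

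The let-7 sequences and their matches are shown because they are what links these genes in the textbook scheme. The RefSeq set (GRCh38.p14) held 9 mature let-7 family sequences from 12 loci, which all carry the same seed at bases 2 to 8, in capitals here. These short RNAs were not measured in these libraries.
hsa-let-7a-5p: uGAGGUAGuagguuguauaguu
hsa-let-7d-5p: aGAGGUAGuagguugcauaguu
hsa-let-7i-5p: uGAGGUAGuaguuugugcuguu
hsa-miR-98-5p: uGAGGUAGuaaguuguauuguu

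The 8-base match, CTACCTCA, is the match to the seed followed by an A. It occurred in the canonical 3ʹ UTR (GENCODE, GRCh38, sense strand only) of 7 of the 8 genes at 10 places. Of the 19538 canonical 3ʹ UTRs of all genes, 733 held it, or 3.75%. Their median length was 1064 bases, shorter than the 3ʹ UTR of each of the 8 genes. Each place is printed with its flanks, the match in capitals.
LIN28A, chr1:26427353-26427380, plus strand: gcctattgaaCTACCTCAtttttgccaa
LIN28B, chr6:105078817-105078844, plus strand: gttgcaaagtCTACCTCAtgcaagtata
LIN28B, chr6:105081426-105081453, plus strand: cagcaaaaggCTACCTCAtagttgatac
HMGA2, chr12:65963303-65963330, plus strand: cgttcgatttCTACCTCAgcagcagttg
IGF2BP1, chr17:49051066-49051093, plus strand: gcgaagtaaaCTACCTCAaggtatgaag
IGF2BP1, chr17:49053703-49053730, plus strand: gtgctagtaaCTACCTCAcagagcccca
IGF2BP1, chr17:49054357-49054384, plus strand: aatggattaaCTACCTCAatccttacag
IGF2BP2, chr3:185644210-185644237, minus strand: acagaagaagCTACCTCAggtgttttta
IGF2BP3, chr7:23311785-23311812, minus strand: ttttactcaaCTACCTCAggtattcagt
ARID3A, chr19:974516-974543, plus strand: ctatctctgtCTACCTCAggtctgactt

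IGF2BP1 held 3 matches in a 3ʹ UTR of 6701 bases. Among 3ʹ UTRs of other genes of like length (the shorter at least 0.8 times the longer), 12.1% held at least 1 match and 0.379% held as many. LIN28B held 2 in 4549 bases, where 9.55% of 3ʹ UTRs of like length held at least 1 and 0.484% held as many. For the remaining genes the share of like length with at least 1 ran from 3.15% (HMGA1) to 7.65% (ARID3A). HMGA1 held no 8-base match in its 1347 bases, but 1 match to the seed without the final A. Counted with or without that A, LIN28B, HMGA2 and IGF2BP1 each held 4 matches to the seed. A match is a description of the sequence only. These genes are let-7 targets by common knowledge, so the count is no independent finding.

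By the same annotation LIN28A (ENSG00000131914) lies at chr1:26410817-26429728, LIN28B (ENSG00000187772) at chr6:104936616-105083332, HMGA1 (ENSG00000137309) at chr6:34236873-34246231 and HMGA2 (ENSG00000149948) at chr12:65824460-65966291, all on the plus strand. IGF2BP1 (ENSG00000159217) lies at chr17:48997385-49056145 and ARID3A (ENSG00000116017) at chr19:925781-975939 on the plus strand, and IGF2BP2 (ENSG00000073792, chr3:185643130-185825042) and IGF2BP3 (ENSG00000136231, chr7:23310209-23470491) lie on the minus strand. The counts included reads from introns, and the genes span between 9359 bases (HMGA1) and 181913 bases (IGF2BP2). A level is therefore compared between cell groups for 1 gene, never between genes.

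The libraries held 16866 and 19948 barcodes with 191152562 and 233818881 UMIs (counted molecules) in 32.7 and 33.10, and they shared 100 barcodes. Cells were assigned to a lineage by the UMIs of 1 gate gene, none of the 8: HBZ (erythroid gate, 776 and 1790 cells), PF4 (megakaryocytic, 911 and 2577), PTPRC (leukocyte, 881 and 433), CDH5 (endothelial, 2237 and 2138), MYH6 (cardiomyocyte, 1363 and 1428), COL3A1 (mesenchymal, 2659 and 2338) and AFP (endoderm, 176 and 10). A cell that passed more than 1 gate (1548 and 1891) or none (6241 and 7288) was left out. Within each gate the UMIs of all cells of an organoid were added up, and levels are given as CPM (counts scaled to a common library total) of these sums after normalisation for composition (TMM), called normalised CPM below and always given in the order 32.7, 33.10. The summed level of 6 marker genes of its own type was highest in its own gate for each of the 7 gates in both organoids. The megakaryocytic gate also held erythroid markers at a summed 4830 and 5297 normalised CPM, against 25045 and 21863 in the erythroid gate and at most 261 in the other 5 gates, and endothelial markers at 973 and 968, against 3490 and 3005 in the endothelial gate. The mesenchymal gate held cardiomyocyte markers at 1006 and 978, against 19904 and 17130 in the cardiomyocyte gate, and endothelial markers at 515 and 453. In 32.7 the endoderm gate held cardiomyocyte markers at 978, mesenchymal markers at 586 and endothelial markers at 408. The endoderm gate of 33.10 rested on 10 cells with 174023 UMIs, so values from it are imprecise. RNA in solution was not removed, and its part in low levels was not tested except by the correction of 10% described with the alternatives.

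All 8 genes differed between lineages in the edgeR quasi-likelihood F test at an adjusted p below 0.05, which 91.1% of the 21787 genes tested also did. Between pairs of lineages, 101 comparisons of a gene passed, or 60.1%, against 46.2% over all genes and pairs. The number of passing pairs of 21 was 18 for HMGA1 and HMGA2, 13 for LIN28B and IGF2BP2, 12 for ARID3A, 11 for IGF2BP1, 9 for LIN28A and 7 for IGF2BP3. The ratio of the highest to the lowest mean level over the 6 gates without endoderm was 16.5 for LIN28A, 14.6 for HMGA2, 11.6 for HMGA1, 3.48 for ARID3A, 2.26 for IGF2BP2, 2.12 for LIN28B, 1.71 for IGF2BP1 and 1.61 for IGF2BP3. The genes did not share 1 order of lineages, as the panels by gene show.

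**Figure D1:**
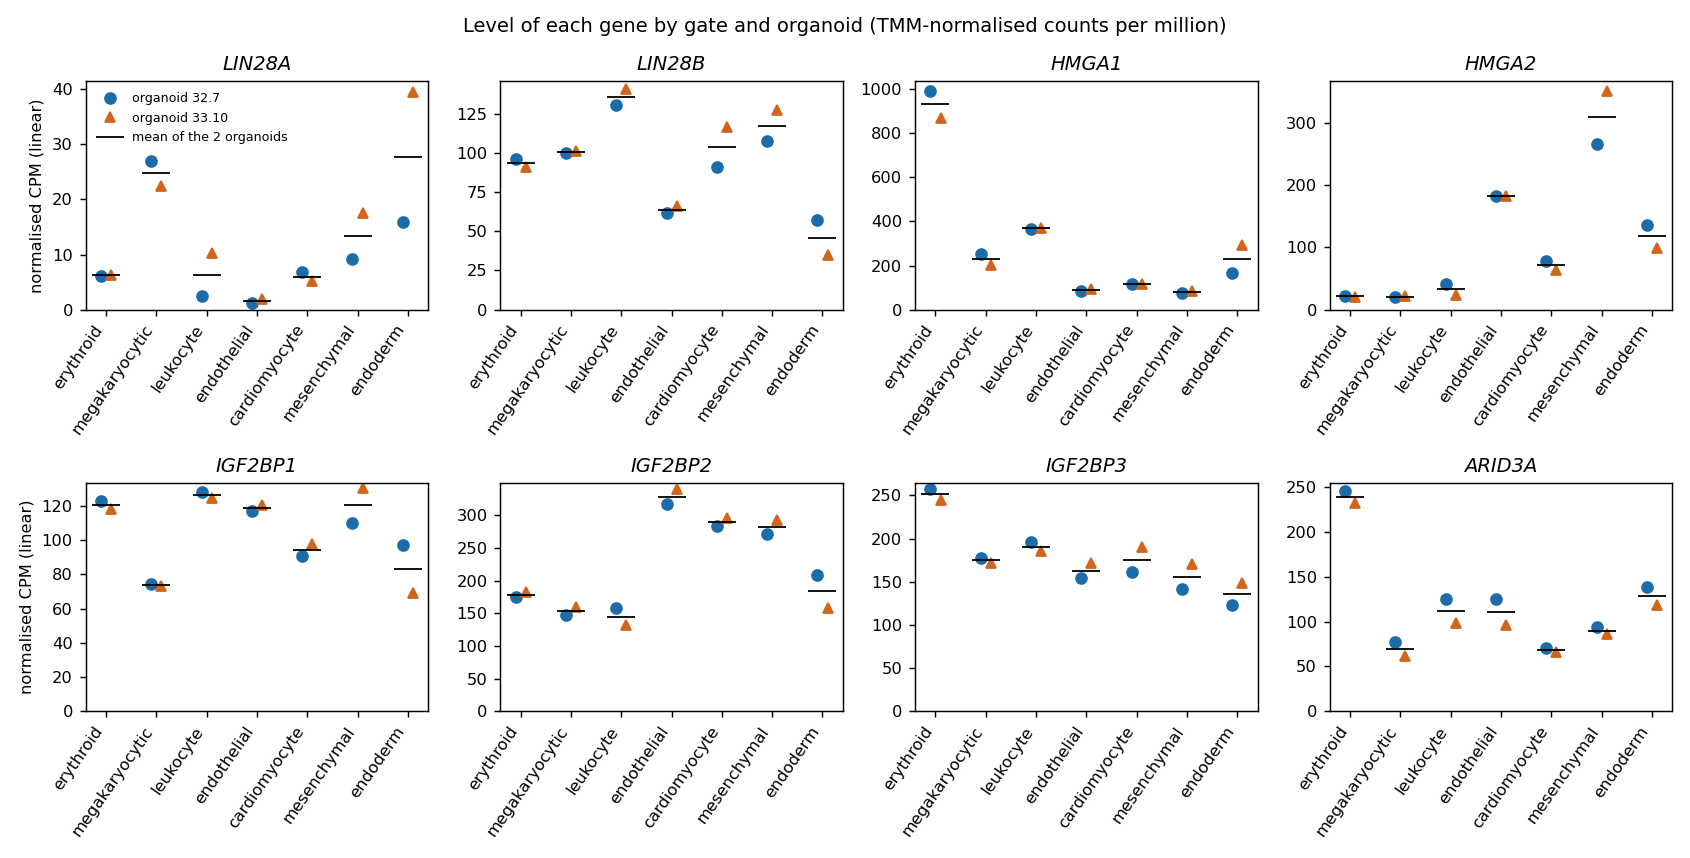
Normalised CPM (linear axis from 0, a scale of its own in each panel) of the 8 genes in the 7 gates. Circles are organoid 32.7, triangles 33.10 and black bars the mean of both; HMGA1 is highest in the erythroid gate (991 and 871) and HMGA2 in the mesenchymal gate (267 and 351).

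The chromatin genes HMGA1 and HMGA2 were distributed in opposite directions between blood and the other mesodermal lineages. HMGA1 stood at 991 and 871 normalised CPM in the erythroid gate, at 366 and 371 in the leukocyte gate and at 254 and 202 in the megakaryocytic gate. It stood at 117 and 118 in the cardiomyocyte gate, at 84.9 and 93.0 in the endothelial gate, at 76.0 and 84.2 in the mesenchymal gate and at 167 and 292 in the endoderm gate. Every blood value exceeded every endothelial, cardiomyocyte and mesenchymal value. The share of all genes that separate gates without overlap was not counted, so such statements, here and for the genes below, are descriptions only. The erythroid gate exceeded the next, the leukocyte gate, by a log2 fold change of 1.34 (SE 0.19, adjusted p = 9.01e-05). The endothelial and mesenchymal gates, the lowest, were not told apart (log2 fold change 0.15, SE 0.19, adjusted p = 0.538).

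HMGA2 stood at 267 and 351 normalised CPM in the mesenchymal gate, at 183 and 182 in the endothelial gate, at 137 and 98.9 in the endoderm gate and at 78.6 and 63.5 in the cardiomyocyte gate. In the leukocyte gate it stood at 41.6 and 23.2, in the erythroid gate at 22.5 and 21.1 and in the megakaryocytic gate at 20.2 and 22.0. The blood gates lay below all others with no overlap, which is a description as for HMGA1. The mesenchymal gate exceeded the endothelial gate by a log2 fold change of 0.76 (SE 0.22, adjusted p = 0.0112), a call that passed in 12 of 13 alternatives. The erythroid and megakaryocytic gates were not told apart (0.04, SE 0.24, adjusted p = 0.932).

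Each of the 3 blood gates was then set against the endothelial, cardiomyocyte and mesenchymal gates, which gives 9 pairs that share their sums and are not independent. Over all genes 56.4% of such comparisons passed, 26% as higher and 30.4% as lower in the blood gate. HMGA1 was higher in the blood gate in 9 of 9 pairs, with log2 fold changes of 0.96 to 3.54. HMGA2 was lower in 9 of 9, between -3.87 and -1.11. With 10% of free RNA removed these values ran from -8.31 to -1.88, so the size of the HMGA2 difference depended on this correction. IGF2BP2 was lower in 9 of 9, between -1.18 and -0.66. These 27 calls passed under each of 13 alternatives for the lineage pairs. No other of the 8 genes passed in 1 direction in all 9 pairs. The share of all genes that passed in 1 direction in all 9 pairs was not counted. The shares given above hold for single comparisons, so the number of such genes among the 8 has no background to be read against.

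The gates also differed in mitotic RNA. Over 10 genes of the mitotic programme, among them MKI67, TOP2A and CDK1, the erythroid gate summed to 2009 and 1389 normalised CPM, the leukocyte gate to 1586 and 1497 and the megakaryocytic gate to 1288 and 768, against 492 and 678 in the mesenchymal, 190.1 and 169.9 in the cardiomyocyte and 147 and 186 in the endothelial gate. The 9 pairs were therefore refitted on non-cycling cells, which held at most 1 UMI of these 10 genes. This choice was made after seeing the data. The 10 genes then summed to 55.5 and 61.8 normalised CPM in the erythroid, 42.2 and 36.9 in the megakaryocytic and 34.2 and 36.5 in the leukocyte gate. They summed to 16.3 and 19.7 in the endothelial, 24.7 and 21.6 in the cardiomyocyte and 21.5 and 19.5 in the mesenchymal gate. A difference in mitotic RNA thus remained, and the cut on raw UMIs also depends on depth. In this refit 49.7% of comparisons over all genes passed. HMGA2 was again lower in 9 of 9 pairs (-3.95 to -1.36) and IGF2BP2 in 9 of 9 (-1.17 to -0.74). HMGA1 was higher in 8 of 9 pairs. The call for the megakaryocytic over the cardiomyocyte gate was lost (log2 fold change 0.18, SE 0.13, adjusted p = 0.239), with HMGA1 at 115 and 113 against 106 and 102 normalised CPM, and at 95.1 and 102.8 against 116.7 and 113.3 on plain CPM.

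**Figure D2:**
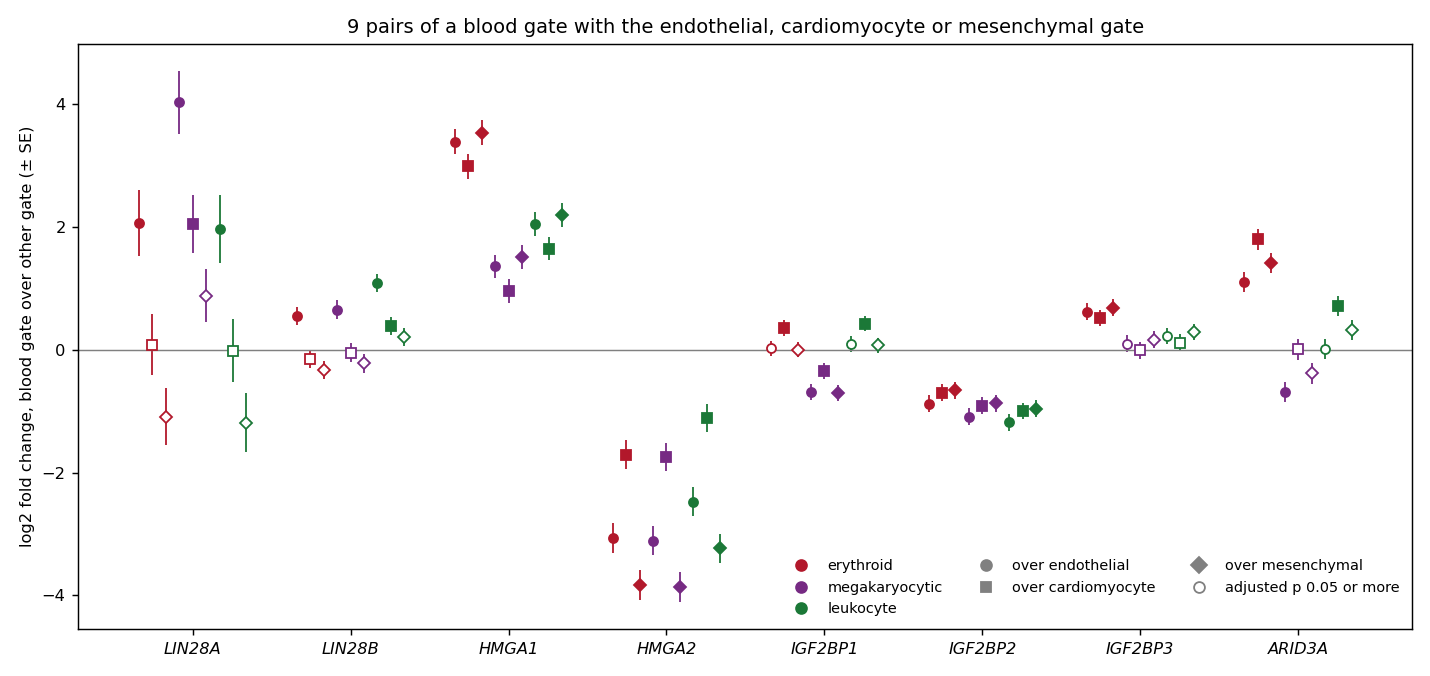
Log2 fold change (± SE) of each gene for the erythroid (red), megakaryocytic (purple) and leukocyte (green) gates over the endothelial (circle), cardiomyocyte (square) and mesenchymal (diamond) gates; open symbols did not pass at an adjusted p of 0.05. All 9 points of HMGA1 lie above 0, and all 9 of HMGA2 and of IGF2BP2 lie below 0.

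Between the erythroid and mesenchymal gates, HMGA1 and HMGA2 also differed in the share of cells with at least 1 UMI. For this, cells were thinned to 2000 UMIs each. The shares count the same UMIs in another way, and those of the other gates are not given here for these 2 genes. Cells with fewer UMIs were left out, 65 and 39 of the erythroid and 7 and 1 of the mesenchymal gate. For HMGA1 the share was 71.6% in 32.7 (95% exact binomial interval 68.1 to 74.9) and 67.8% in 33.10 (65.5 to 70.0) in the erythroid gate, against 13.6% (12.3 to 14.9) and 15.1% (13.6 to 16.6) in the mesenchymal gate (unthinned 91.8% and 92.5% against 52.8% and 57.4%). For HMGA2 it was 31.5% (29.8 to 33.3) and 41.7% (39.7 to 43.7) in the mesenchymal gate, against 4.78% (3.33 to 6.62) and 2.74% (2.03 to 3.62) in the erythroid gate (unthinned 73.0% and 83.7% against 11.2% and 8.77%). The intervals cover counting error only, and none of the gates is known to lack these genes, so a background share could not be read. HMGA1 has near-identical copies in the genome, and how reads shared with them were divided was not tested, so its level carries that uncertainty.

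Of the RNA-binding IGF2BP genes, IGF2BP2 split along the same line as HMGA2. It stood at 317 and 339 normalised CPM in the endothelial gate, at 284 and 295 in the cardiomyocyte gate and at 272 and 293 in the mesenchymal gate. The blood gates stood at 174 and 183 (erythroid), 148 and 160.2 (megakaryocytic) and 157 and 132 (leukocyte), and the endoderm gate at 209 and 158. The 6 blood values lay below the 6 endothelial, cardiomyocyte and mesenchymal values. Within each of these sets of 3 gates, neighbours in the order did not differ beyond the spread (adjusted p between 0.239 and 0.865).

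IGF2BP3 had the smallest ratio over the 6 gates without endoderm; with the endoderm gate its ratio was 1.86, above the 1.71 of IGF2BP1. It stood at 258 and 245 normalised CPM in the erythroid gate, and every other gate lay between 123 and 196. The erythroid gate exceeded the next, the leukocyte gate, by a log2 fold change of 0.40 (SE 0.14, adjusted p = 0.0318), a call that passed in 9 of 13 alternatives and was lost among non-cycling cells (adjusted p = 0.236), and none of the 5 steps below it in the order passed (adjusted p between 0.296 and 0.970). This order depended on the scaling: TMM raised the erythroid gate by 0.20 to 0.57 on the log2 scale over the other gates, and on plain library totals the erythroid gate stood at a log2 fold change of -0.02 from the cardiomyocyte gate.

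IGF2BP1 stood at 74.5 and 73.1 normalised CPM in the megakaryocytic gate, the lowest mean of the 7 gates. The leukocyte gate stood at 128 and 125, the erythroid gate at 123 and 118, the mesenchymal gate at 110.2 and 130.4, the endothelial gate at 117 and 120.2, the cardiomyocyte gate at 90.5 and 97.5 and the endoderm gate at 96.9 and 69.2. The megakaryocytic gate was lower than the leukocyte gate (log2 fold change -0.78, SE 0.13, adjusted p = 0.000266), the endothelial gate (-0.68, SE 0.13, adjusted p = 0.000513) and the mesenchymal gate (-0.70, SE 0.13, adjusted p = 0.000382) under each of the 13 alternatives. Over all cells the 4 highest gates were not told apart in order (adjusted p between 0.701 and 0.994). Among non-cycling cells the erythroid gate was lower than the leukocyte gate (log2 fold change -0.76, SE 0.15, adjusted p = 0.00155). It was then also lower than the endothelial (-0.80, SE 0.15, adjusted p = 0.000561) and mesenchymal gates (-0.73, SE 0.15, adjusted p = 0.00111). For the erythroid gate the direction turned with the scaling and with the choice of cells. Over the cardiomyocyte gate its log2 fold change was 0.36 (SE 0.13, adjusted p = 0.0277), -0.18 on plain library totals and -0.50 (SE 0.15, adjusted p = 0.0133) among non-cycling cells.

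The let-7 regulators LIN28A and LIN28B both had their lowest mean in the endothelial gate among the 6 gates without endoderm. This order did not hold against the erythroid gate among non-cycling cells, where the erythroid values lay below the endothelial values in each organoid for LIN28A (0.694 and 0.922 against 0.879 and 1.40 normalised CPM, with 1 and 4 against 23 and 31 UMIs) and for LIN28B (44.4 and 57.8 against 55.7 and 58.1). The log2 fold change of erythroid over endothelial cells was then -0.41 (SE 0.94, adjusted p = 0.751) for LIN28A and -0.15 (SE 0.22, adjusted p = 0.596) for LIN28B. Further calls over the endothelial gate were lost among non-cycling cells. For LIN28A the leukocyte gate gave 1.36 (SE 0.76, adjusted p = 0.174) from 3 and 9 UMIs, against 1.96 (adjusted p = 0.00972) over all cells. For LIN28B the megakaryocytic gate gave 0.48 (SE 0.20, adjusted p = 0.0614), against 0.66 (adjusted p = 0.00244) over all cells. LIN28A stood at 1.14 and 1.87 normalised CPM in the endothelial gate (39 and 59 UMIs). It stood at 27.1 and 22.4 in the megakaryocytic gate, at 9.12 and 17.6 in the mesenchymal gate, at 6.75 and 5.15 in the cardiomyocyte gate, at 6.15 and 6.37 in the erythroid gate and at 2.49 and 10.2 in the leukocyte gate. The endoderm gate gave 15.96 and 39.6 from only 28 and 8 UMIs. No endothelial value reached that of another gate. The megakaryocytic gate exceeded the endothelial gate by a log2 fold change of 4.03 (SE 0.52, adjusted p = 2.28e-05). Over the 13 alternatives this ran from 3.72 to 5.26, with 5.26 after removal of 10% of free RNA, so its size depended on the correction. The cardiomyocyte gate, the next above endothelium, exceeded the endothelial gate by 1.98 (SE 0.53, adjusted p = 0.00621). The megakaryocytic and mesenchymal gates were not told apart (0.88, SE 0.43, adjusted p = 0.101). With the organoid as a block the adjusted p was 0.0375. Among non-cycling cells this log2 fold change was 0.19 (SE 0.37, adjusted p = 0.676), with 12.0 and 13.8 against 8.35 and 15.2 normalised CPM. After thinning to 2000 UMIs, 2.96% (1.89 to 4.41) and 3.23% (2.56 to 4.01) of megakaryocytic cells had a LIN28A UMI, against 0.180% (0.0492 to 0.461) and 0.189% (0.0515 to 0.483) of endothelial cells, with 134 and 162 megakaryocytic and 19 and 22 endothelial cells left out as too shallow (unthinned 14.6% and 13.5% against 1.70% and 2.29%).

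LIN28B stood at 61.6 and 65.9 normalised CPM in the endothelial gate and at 57.0 and 34.6 in the endoderm gate. The leukocyte gate stood at 130.3 and 140.5, the mesenchymal gate at 107 and 127, the cardiomyocyte gate at 90.7 and 117, the megakaryocytic gate at 99.8 and 101 and the erythroid gate at 96.4 and 90.7. The endothelial values lay below those of the 5 other gates without endoderm. They sum over cells that differed in LIN28B, as the division by NR2F2 and CXCR4 given below shows. The leukocyte and mesenchymal gates were not told apart (0.21, SE 0.15, adjusted p = 0.2501), and on plain library totals their log2 fold change was -0.04. Over the endothelial gate the log2 fold change was 1.09 (SE 0.15, adjusted p = 5.10e-05) for the leukocyte gate. It was 0.88 (SE 0.15, adjusted p = 0.000338) for the mesenchymal gate and 0.70 (SE 0.15, adjusted p = 0.00146) for the cardiomyocyte gate. These 3 calls over the endothelial gate passed under each of the 13 alternatives and among non-cycling cells. The erythroid gate exceeded it by 0.55 (SE 0.15, adjusted p = 0.00717), which fell to 0.04 on plain library totals.

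ARID3A was highest in the erythroid gate, at 246 and 232 normalised CPM. The endoderm gate stood at 139 and 119, the leukocyte gate at 125 and 98.9, the endothelial gate at 125 and 95.8, the mesenchymal gate at 93.6 and 86.1, the megakaryocytic gate at 76.9 and 61.1 and the cardiomyocyte gate at 70.6 and 66.5. The erythroid values lay above all others. Over the next gate in order, the endoderm gate, the log2 fold change was 0.84 (SE 0.19, adjusted p = 0.00333). That call passed in 11 of 12 alternatives, where the log2 fold change fell to as little as 0.29 and the adjusted p reached 0.183. On plain CPM the erythroid gate stood at 187 and 180 and the endoderm gate at 154 and 138. The erythroid gate exceeded the megakaryocytic gate by a log2 fold change of 1.80 (SE 0.17, adjusted p = 2.39e-06), the endothelial gate by 1.11 (SE 0.16, adjusted p = 7.01e-05) and the leukocyte gate by 1.09 (SE 0.16, adjusted p = 0.000143), each under the 13 alternatives as well.

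Over the 14 sums, which share 2 libraries, the log2 level (plain CPM + 1) of HMGA1 had a Pearson r of -0.782 with HMGA2 and -0.836 with IGF2BP2, and HMGA2 had 0.873 with IGF2BP2. Among the genes whose levels followed most closely were FAM117A (0.942) and SNHG3 for HMGA1, SORBS3 (0.975), AHNAK and EFNA4 for HMGA2, and SPTBN1 (0.984), EML1 and SGCB for IGF2BP2. For LIN28A they were IL17RE (0.931), GALNT12 and AC007405.1, and for LIN28B PAPLN (0.930), TTYH2 and AC024257.3. For IGF2BP1 they were NLN (0.952), LRRC37B and UGGT2, for IGF2BP3 CHCHD3 (0.854), DNAJC11 and ADCK1, and for ARID3A RPL38 (0.943), PABPC4 and MRPS18B. These values are descriptions without a test.

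Cells of the same gate were then divided by the cell cycle. Cycling cells held at least 5 UMIs over the 10 mitotic genes and non-cycling cells at most 1. Of 48 comparisons in 6 gates, 15 were higher and 1 was lower in cycling cells, against 16.6% of comparisons over all genes (9.74% higher and 6.9% lower). HMGA1 was higher in 5 of 6 gates. In the megakaryocytic gate it stood at 389 and 379.5 normalised CPM in cycling cells and 115 and 113 in non-cycling cells (log2 fold change 1.75, SE 0.14, adjusted p = 2.59e-08). In the leukocyte gate it stood at 412 and 408 against 182 and 168.1 (1.23, SE 0.14, adjusted p = 4.14e-06). The cycling values lay above the non-cycling values in both organoids of each gate.

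HMGA1 in the endothelial gate stood at 133 and 185 against 72.5 and 69.7 normalised CPM (log2 fold change 1.16, SE 0.14, adjusted p = 9.13e-06). The mesenchymal gate gave 0.88 (SE 0.14, adjusted p = 0.000231) and the cardiomyocyte gate 0.81 (SE 0.14, adjusted p = 0.000891). In the erythroid gate, where HMGA1 was highest, cycling cells stood at 1034 and 961 and non-cycling cells at 867 and 799 (0.26, SE 0.14, adjusted p = 0.207; on plain library totals 0.42, adjusted p = 0.0274). The normalised CPM of HMGA1 in non-cycling erythroid cells thus still lay above that in cycling cells of any other gate, which reached at most 412. This level is a share of the UMIs, and the amount per cell was not compared. The difference between the gates in this effect passed its own test for HMGA1 (adjusted p = 0.000883), as it did for 21.1% of all 19766 genes.

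Of the RNA-binding genes, LIN28B was higher in cycling cells of the 3 blood gates and IGF2BP1 in those of the erythroid, megakaryocytic and mesenchymal gates. IGF2BP1 in the erythroid gate stood at 143 and 149 normalised CPM in cycling cells and at 59.0 and 71.7 in non-cycling cells (log2 fold change 1.14, SE 0.13, adjusted p = 2.92e-06). In the megakaryocytic gate it rose by 0.96 (SE 0.12, adjusted p = 1.01e-05) and in the mesenchymal gate by 0.44 (SE 0.12, adjusted p = 0.0200, passing in 9 of 13 alternatives). LIN28B in the erythroid gate stood at 113 and 110.5 against 44.4 and 57.8 (1.10, SE 0.19, adjusted p = 0.000388). In both organoids the cycling values of these genes lay above the non-cycling values. LIN28B also rose in the megakaryocytic (0.71, SE 0.18, adjusted p = 0.00599) and leukocyte gates (0.71, SE 0.19, adjusted p = 0.00956), each in 12 of 13 alternatives. In the endothelial gate it gave 0.54 (SE 0.18, adjusted p = 0.0577; with the organoid as a block, adjusted p = 0.00435). In the cardiomyocyte gate it gave -0.19 (SE 0.18) and in the mesenchymal gate 0.05 (SE 0.17), neither past the threshold. The difference between gates passed its own test for IGF2BP1 (adjusted p = 0.00197) and LIN28B (adjusted p = 0.0110).

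LIN28A rose in the megakaryocytic gate, from 12.0 and 13.8 normalised CPM in non-cycling to 40.9 and 37.8 in cycling cells (log2 fold change 1.58, SE 0.46, adjusted p = 0.0151). In the erythroid gate the non-cycling cells held only 1 and 4 LIN28A UMIs against 53 and 95, so the fitted 3.27 (SE 0.95, adjusted p = 0.0187) is imprecise. HMGA2 rose in the cardiomyocyte gate, from 65.1 and 52.1 to 140.0 and 109 (1.08, SE 0.22, adjusted p = 0.00344), in 10 of 13 alternatives. IGF2BP3 rose in the erythroid gate by 0.47 (SE 0.15, adjusted p = 0.0309), but passed in only 7 of 13 alternatives, where its log2 fold change ran from 0.20 to 0.70 with adjusted p up to 0.469. IGF2BP2 fell in the megakaryocytic gate, from 167 and 159.5 to 114 and 129.9 (-0.42, SE 0.13, adjusted p = 0.0238), in 10 of 13 alternatives, and gave -0.23 (adjusted p = 0.220) on plain library totals. ARID3A passed in no gate, and stood at 87.4 and 79.5 in cycling against 130.2 and 98.8 in non-cycling endothelial cells (-0.46, SE 0.16, adjusted p = 0.0711). With the organoid as a block ARID3A passed as lower in the endothelial (adjusted p = 0.00489) and erythroid gates (adjusted p = 0.0180) and as higher in the megakaryocytic gate (adjusted p = 0.0265), and 22 of the 48 comparisons passed.

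Cycling and non-cycling cells also differed in maturity markers and depth. The 6 erythroid markers summed to 22294 and 19342 normalised CPM in cycling against 34175 and 29455 in non-cycling erythroid cells. The 6 megakaryocytic markers summed to 7150 and 5712 against 24815 and 16665. In the cardiomyocyte gate the 6 cardiomyocyte markers summed to 13235 and 11381 in cycling against 21158 and 18209 in non-cycling cells, while endothelial markers summed to 383 and 399.6 against 232 and 179 and leukocyte markers to 63.8 and 82.7 against 19.2 and 19.3. Median UMIs per cell were 21308 and 15935 in cycling against 6528 and 6785 in non-cycling erythroid cells, and 20394 and 18365 against 12458 and 10229 in endothelial cells. Their part in these differences was not tested.

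**Figure D3:**
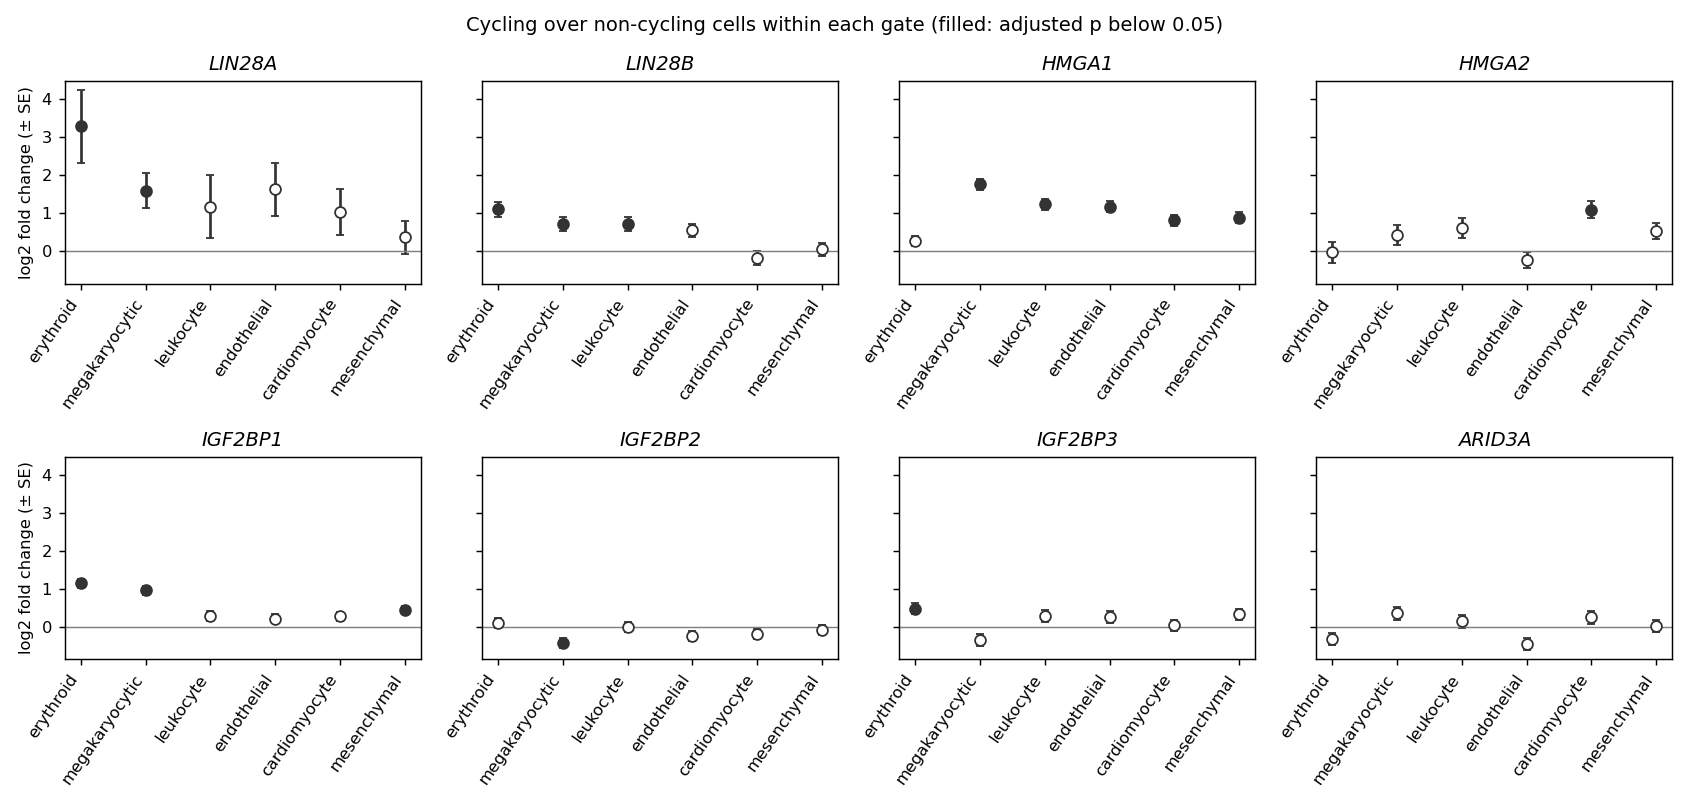
Log2 fold change (± SE) of cycling over non-cycling cells within 6 gates for each gene, on 1 shared axis; filled points passed at an adjusted p of 0.05. HMGA1 is filled in all gates but the erythroid, where it gave 0.26.

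Blood arises in the embryo from haemogenic endothelium, endothelial cells that switch on the transcription factor RUNX1. In the endothelial gate, cells with at least 2 RUNX1 UMIs (41 and 73) were compared with cells without any (2049 and 1931). HMGA1 stood at 221 and 221 normalised CPM in RUNX1-positive and at 87.9 and 98.4 in RUNX1-negative cells (log2 fold change 1.24, SE 0.13, adjusted p = 0.000455). LIN28B stood at 107 and 102 against 66.4 and 71.6 (0.60, SE 0.13, adjusted p = 0.0294). Both RUNX1-positive sums lay above both RUNX1-negative sums for these genes. They were 2 of the 8 genes past the threshold, against 5.42% of all 17207 genes, or 4% as higher. The other 6 lay between -0.28 and 1.43, LIN28A at the upper end with 5 UMIs in each RUNX1-positive sum.

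The call for both genes was lost when the comparison was made among non-cycling cells, a choice made after seeing the data. With 17 and 35 RUNX1-positive cells left, HMGA1 gave a log2 fold change of 0.23 (SE 0.19, adjusted p = 0.712) and LIN28B -0.33 (SE 0.23, adjusted p = 0.634). Over all cells the 10 cycle genes summed to 260 and 540 normalised CPM in RUNX1-positive and 159 and 186 in RUNX1-negative cells. Markers of 3 blood lineages were also higher in the RUNX1-positive sums, at 290 and 1408 against 67.5 and 150.0 for the 6 erythroid, 312 and 414 against 45.3 and 58.3 for the 6 megakaryocytic, and 217 and 214 against 57.2 and 46.9 for the 6 leukocyte genes. The 6 endothelial markers were lower in the RUNX1-positive sums, at 2726 and 2372 against 3808 and 3430. Median UMIs per cell were 16570 and 18854 against 12831 and 10781. With every other gate gene held to at most 0.25 of its threshold, HMGA1 gave 0.94 (SE 0.16, adjusted p = 0.0112) and LIN28B -0.06 (SE 0.20, adjusted p = 0.944). Without the deepest 10% of cells, HMGA1 gave 0.86 (SE 0.16, adjusted p = 0.00388) and LIN28B 0.28 (SE 0.18, adjusted p = 0.523). Neither gene passed with gates on UMIs per 10000, where HMGA1 gave 0.69 (SE 0.14, adjusted p = 0.0515). The same held with RUNX1-positive cells taken from 1 UMI, where HMGA1 gave 0.48 (SE 0.11, adjusted p = 0.135).

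**Figure D4:**
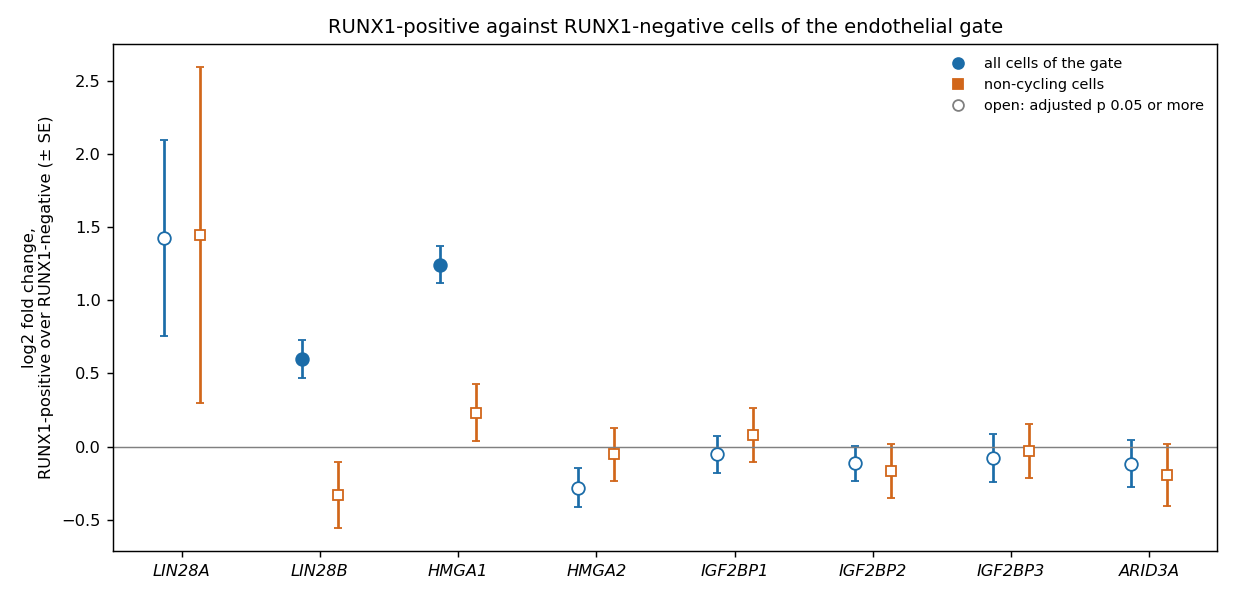
Log2 fold change (± SE) of RUNX1-positive over RUNX1-negative cells of the endothelial gate, for all cells (blue circles) and for non-cycling cells (orange squares); filled points passed at an adjusted p of 0.05. HMGA1 and LIN28B are filled for all cells (1.24 and 0.60) and open for non-cycling cells (0.23 and -0.33).

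The endothelial gate was also divided by NR2F2, a transcription factor of venous endothelium, and CXCR4, a chemokine receptor of arterial endothelium, in groups chosen after the values were seen and so given without a test and on plain CPM. In cells with at least 2 NR2F2 and no CXCR4 UMIs (380 and 355 cells), LIN28B stood at 111 and 131 CPM, against 46.5 and 52.2 in cells with at least 2 CXCR4 and no NR2F2 UMIs (994 and 867 cells). HMGA2 stood at 87.4 and 103 against 228 and 234. In both organoids LIN28B was thus higher and HMGA2 lower in the NR2F2 group. On plain CPM LIN28B in the NR2F2 group lay above the erythroid (73.3 and 70.4) and megakaryocytic gates (86.0 and 91.8). In each organoid it lay above the cardiomyocyte gate (100.3 and 130.8) and below the leukocyte (119.9 and 135.7) and mesenchymal gates (116.4 and 146.0). Across the organoids its values overlapped those of each of these gates. The whole endothelial gate stood at 65.6 and 74.5 on this scale, which overlapped the erythroid gate, unlike on normalised CPM. LIN28B in the NR2F2 group lay above the whole endothelial gate in both organoids. HMGA1 stood at 102 and 131 against 79.9 and 78.6, and LIN28A at 2.21 and 5.09 against 0.868 and 0.710. IGF2BP1 stood at 146 and 145 against 115 and 127, and ARID3A at 111 and 92.0 against 148 and 119. The values of IGF2BP2 and IGF2BP3 overlapped between the groups. The share of all genes without overlap between these groups was not counted, so the lack of overlap in the other genes is a description only. Median UMIs per cell were 12829 and 11311 in the NR2F2 group and 14892 and 12967 in the CXCR4 group.

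**Figure D5:**
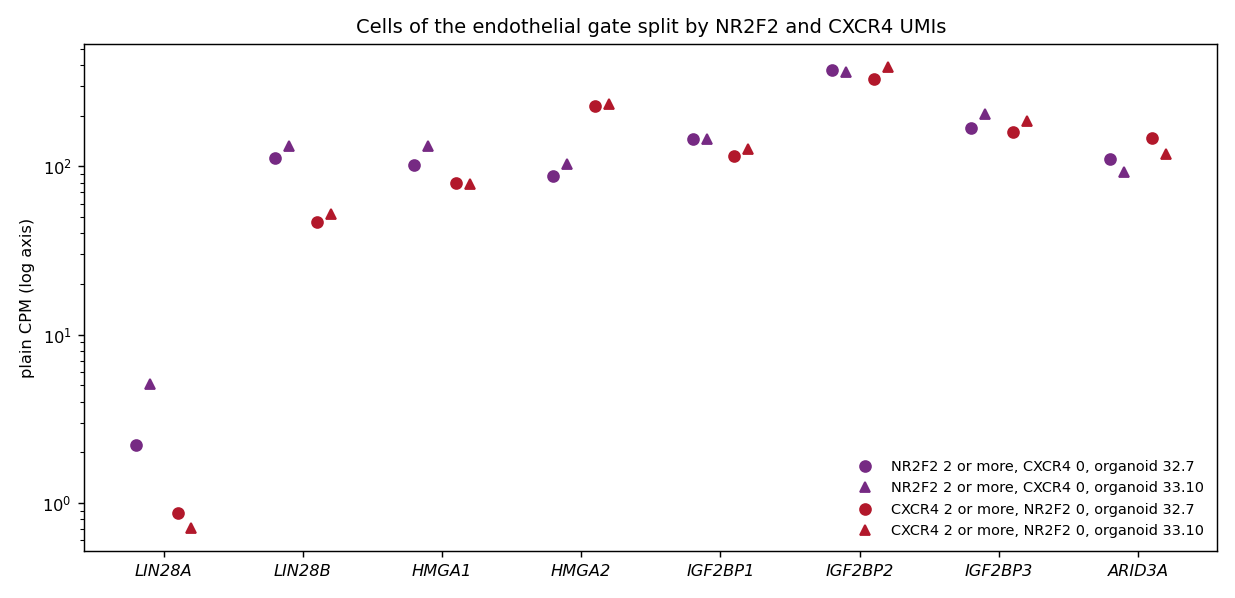
Plain CPM (log axis) of the 8 genes in cells of the endothelial gate with NR2F2 and no CXCR4 UMIs (purple) or with CXCR4 and no NR2F2 UMIs (red); circles are organoid 32.7, triangles 33.10. LIN28B is higher in the purple group (111 and 131 against 46.5 and 52.2) and HMGA2 in the red group (228 and 234 against 87.4 and 103).

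The wider let-7 pathway was read from lists, whose counts are set against the 91.1% of all genes that differed between lineages. Of the host transcripts of let-7 clusters, 3 of 4 were tested and all 3 differed between lineages in the F test. MIR99AHG, which hosts let-7c, stood highest in the cardiomyocyte gate at 327 and 384 normalised CPM and at 24.1 and 32.2 in the megakaryocytic gate. MIR100HG, which hosts let-7a-2, stood at 216 and 200.1 in the cardiomyocyte gate and 248 and 228 in the mesenchymal gate, and between 11.6 and 22.2 in the blood and endothelial gates. MIRLET7BHG stayed at or below 1.14 in all gates. A host transcript is not a measure of mature let-7.

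Of 11 genes that process or turn over let-7, 9 differed between lineages, all but the microprocessor subunit DGCR8 and the DICER1 partner TARBP2. TUT7, a uridylyl transferase, stood at 104 and 95.1 normalised CPM in the megakaryocytic gate and 30.2 and 28.9 in the cardiomyocyte gate. TUT4, the uridylyl transferase that LIN28A recruits, stood at 169.7 and 170.3 in the mesenchymal gate and between 94.5 and 129.6 in the other gates. TRIM71, a let-7 target and fetal RNA regulator, stood at 40.4 and 37.1 in the leukocyte gate and 2.51 and 2.83 in the megakaryocytic gate.

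Of 14 other let-7 targets and RNAs bound by IGF2BP proteins, 13 were tested (all but H19) and all 13 differed between lineages. MYC, a growth regulator and IGF2BP client, stood at 202 and 129 normalised CPM in the erythroid gate and at 2.91 and 4.27 in the cardiomyocyte gate. MYCN stood at 22.8 and 21.6 in the megakaryocytic gate and at most 8.49 elsewhere. IGF2, the growth factor that named the IGF2BP family, stood at 274 and 266 in the mesenchymal gate and between 6.16 and 44.1 in the blood, endothelial and cardiomyocyte gates. CCND1 was highest in the endothelial gate (182 and 165) and CDK6 in the mesenchymal gate (266 and 222).

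The core pluripotency genes POU5F1, NANOG and SOX2 were at or below 0.479 normalised CPM in every gate and were not tested. LIN28A, a gene shared with pluripotent cells, was thus measured in gates where these 3 were near 0. Of the 6 tested genes of this list all 6 differed between lineages, among them DNMT3B, a DNA methyltransferase, at 27.9 and 26.0 in the erythroid and 27.6 and 24.4 in the megakaryocytic gate against 7.41 to 20.6 in the other gates apart from the endoderm gate of 33.10, where it had no UMI. The list did not share this order. In the erythroid against the megakaryocytic gate 3 of the 6 passed as higher and 0 as lower (44.2% of all genes passed). In the megakaryocytic against the mesenchymal gate 1 passed as higher and 2 as lower (56.2% of all genes passed).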

How the data were processed

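Single-cell 3ʹ RNA libraries (chemistry v3.1) of 2 day-14 BG-HFOs were used. The deposited counts were UMIs per gene and barcode made by the authors with Cell Ranger 7.0.0 on GRCh38, introns included, before their merging, SoupX correction and cell filter. As in the study's filter, cells with 50 to 11000 genes and under 30% mitochondrial UMIs were kept (16792 and 19893), with no doublet caller. Gates required at least 50 HBZ, 20 PF4, 2 PTPRC, 2 CDH5, 5 MYH6, 10 COL3A1 or 10 AFP UMIs and no other gate. The planned rule for the endoderm gate (halve the threshold until 20 cells per organoid) was not followed, since it would have ended at 1 AFP UMI, with 478 and 32 cells. That gate was run as an alternative.

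Sums per organoid and gate were tested with edgeR 4.0.16 (TMM, filterByExpr, quasi-likelihood, Benjamini-Hochberg over all genes), in 1 fit of 14 lineage sums, 1 of 24 cycle sums and 1 of 4 RUNX1 sums. SE is the absolute log2 fold change over the root of F. Cells are not replicates, and 2 organoids of 1 line measure only the spread between them. Alternatives (DESeq2 1.42.0, no low-count filter, free-RNA correction, other gates, cell filters and scalings) were run in R 4.3.3 and Python 3.11.15. The tests were checked on simulated counts drawn from 1 pooled profile, with a small set of genes changed in 1 group. That check does not cover scaling and error where most genes differ, as between these lineages. Sums of 1 organoid come from 1 library, so the organoid as a block is a pairing by design. Deviations from the lineage mean correlated between lineages with r of -0.0106 to 0.430 (median 0.255, 21 pairs). The members, lists and gates were chosen with earlier results of these data known. The named genes are the 8 members, the genes of the lists and, per member, the 3 genes with the highest r, of which 1 is not reported here.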

Additional observations from a re-analysis of the deposited data

Results flagged for a closer look

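For 4 genes the difference between cycling and non-cycling cells itself differed between the 6 gates in the edgeR interaction test, which 21.1% of all genes also passed. The adjusted p was 0.000883 for HMGA1, whose log2 fold change ran from 0.26 (erythroid) to 1.75 (megakaryocytic), and 0.00197 for IGF2BP1, from 0.21 (endothelial) to 1.14 (erythroid). It was 0.0110 for LIN28B, from -0.19 (cardiomyocyte) to 1.10 (erythroid), and 0.0421 for HMGA2, from -0.23 (endothelial) to 1.08 (cardiomyocyte). HMGA1 and IGF2BP1 thus had their smallest and largest values in different gates, with the erythroid gate at opposite ends. Depth and marker levels moved with the cycle groups, as given in the report, and their part was not tested.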

How the results depend on the processing

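All 8 genes kept their F-test call under the 13 other settings run, and 7 of 8 did so on plain library totals. The passing lineage pairs numbered 101, 90 to 114 under the alternatives, 76 of 120 without the endoderm gate and 73 of 120 in non-cycling cells of the 6 other gates. The passing cycle comparisons numbered 16, and 13 to 22 under the alternatives. Left-out organoids gave no test: with either organoid alone the direction held for 101 of 101 pairs, 16 of 16 cycle calls and 2 of 2 RUNX1 calls. These comparisons were picked by their call in both organoids together, so the agreement was largely set in advance. The organoid as a block left 203 of 224 single results on their side of the threshold, made 20 pass and 1 fail (IGF2BP1, erythroid over endoderm, adjusted p = 0.0576). Calls it added that are not named in the report were 13 more lineage pairs (of ARID3A, LIN28A, IGF2BP3, LIN28B and HMGA2) and 2 cycle comparisons (IGF2BP3 in the megakaryocytic gate, adjusted p = 0.0450, and HMGA2 in the mesenchymal gate, adjusted p = 0.0386). The count of RUNX1 calls, 2 of 8, fell to 1 without the deepest 10% of cells, to 1 with gate thresholds halved, to 1 with them doubled, to 1 of 7 tested with other gate genes held to 0.25 of their threshold, and to 0 with gates on UMIs per 10000, with RUNX1 at 1 UMI or in non-cycling cells. HMGA1 passed there in 11 of 14 alternatives and LIN28B in 7. Directions turned for IGF2BP1 on plain library totals, where the erythroid gate stood at -0.49 over endothelial, -0.18 over cardiomyocyte, -0.54 over mesenchymal and -0.13 over endoderm, and for IGF2BP3 at -0.0201 over cardiomyocyte. TMM itself sets this shift. Among non-cycling cells the erythroid gate turned for IGF2BP1 (-0.80 over endothelial, -0.50 over cardiomyocyte, -0.73 over mesenchymal), LIN28A (-0.41 over endothelial, -2.63 over cardiomyocyte), LIN28B (-0.15 over endothelial) and IGF2BP3 (-0.0279 over megakaryocytic), and LIN28B turned to -0.23 for leukocyte over cardiomyocyte. HMGA2 in cardiomyocyte over endoderm turned to 0.0303 with gates on UMIs per 10000, and LIN28B in RUNX1-positive over negative cells to -0.0645 under that rule for other gate genes and -0.33 in non-cycling cells. The cause of these was not tested. The gate with the highest share of cells with a UMI was that with the highest plain CPM for 7 of 8 genes, thinned to 2000 or 5000 UMIs, and for 5 of 8 without thinning. Depth limited LIN28A, and the endoderm gate of 33.10 with 10 cells limited each comparison with it. Plain library totals, the 2 changes to the endoderm gate and the lineage and RUNX1 comparisons in non-cycling cells were chosen after seeing the data.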

Other observations

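Cells of the leukocyte gate were divided after the values were seen, so the following has no test and uses plain CPM. Cells with at least 3 UMIs of C1QA, C1QB and C1QC, complement genes of macrophages (438 and 221 cells), held HMGA1 at 256 and 285 CPM and LIN28B at 92.0 and 126. Cells with at least 3 UMIs of MPO, AZU1 and ELANE, granule genes of myeloid precursors (234 and 53 cells), held HMGA1 at 420.5 and 424 and LIN28B at 159 and 173. In both organoids both genes were thus higher in the granule group. ARID3A stood at 134 and 120 in the granule group and at 102 and 97.9 in the C1Q group. The share of all genes without overlap between these groups was not counted, so these differences are a description only. Median UMIs per cell were 18902.5 and 18304 in the granule group and 15381.5 and 14898 in the C1Q group. The part of depth and of cycling cells was not tested. Cells with neither (181 and 139) held HMGA1 at 414 and 456. IGF2BP3 stood at 176 and 181 in the C1Q group and at 196 and 169.7 in the granule group, which overlap.

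Cells outside all gates (6241 and 7288, median 2949 and 4170 UMIs) held HMGA1 at 187 and 193 CPM, HMGA2 at 146 and 160.5, LIN28B at 87.9 and 103 and IGF2BP2 at 232 and 263.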
